A study of Rattus norvegicus with 21 samples.

Results

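The aldo-keto reductases described here are 8 rat genes, Akr1b8, Akr1b7, Akr1b1, Akr1a1, Akr7a3, Akr7a2, Akr1c2 and Akr1d1. They were chosen as a list of family symbols, with earlier results of these data known. Each was read from the array probe that the platform annotation gives its symbol. Each of the 8 had 1 probe among the 22523 on the array, and all 8 passed the filter on dim probes that left 19339 features, 12112 of them named genes. A further 12 genes of the superfamily were measured and serve as neighbours and paralogs. Non-tumour liver of male Wistar rats was profiled on 21 Illumina bead arrays in 7 groups of 3. Diethylnitrosamine (DEN), a carcinogen activated by hepatocytes, was injected into the peritoneum once a week, and erlotinib, an inhibitor of the epidermal growth factor receptor, was given to some of the rats from week 13 to week 18. The groups labelled week 12 received DEN at 50 mg/kg (DEN 50), DEN at 100 mg/kg (DEN 100) or phosphate-buffered saline (PBS). Those labelled week 18 received DEN at 50 mg/kg with erlotinib at 0.5 mg/kg, with erlotinib at 2 mg/kg or with the erlotinib vehicle, each 5 times a week, or PBS without DEN. The titles of those PBS livers say None in place of vehicle, so DEN and vehicle cannot be told apart against them. All rats had a washout of 1 week before killing, so the levels are not those of the hours after an injection. The 0.5 mg/kg dose came from a separate study, and the vehicle rats of both studies were pooled by the authors, so erlotinib dose and study cannot be told apart. Age was not given in the labels, which also do not state outright that the numbers in the titles are separate rats. The p-values set each difference against the spread between these samples, which may therefore be technical.

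Aldo-keto reductases are soluble enzymes that use NADPH to turn reactive aldehydes and ketones into alcohols. In liver they meet the aldehydes of lipid peroxidation and of toxins, the ketone groups of steroids and the intermediates of bile acid synthesis. The members fall into 3 sets by role. Akr1b8, Akr1b7 and Akr1b1 belong to the aldose reductase branch: Akr1b1 is aldose reductase itself, which makes sorbitol from glucose, Akr1b8 is a rodent reductase of retinaldehyde and lipid aldehydes related to human AKR1B10, and Akr1b7 was described in the mouse as a vas deferens protein that reduces lipid aldehydes. Akr1a1 is the general aldehyde reductase that makes gulonate from glucuronate on the way to ascorbate, Akr7a3 is the aflatoxin aldehyde reductase known in rats for its induction by antioxidants, and Akr7a2 is its relative that reduces succinic semialdehyde. Akr1d1 is the steroid reductase of bile acid synthesis that sets the bent A/B ring junction, and Akr1c2 belongs to the hydroxysteroid dehydrogenase branch, whose human namesake inactivates dihydrotestosterone.

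In the RefSeq gene order of the rat assembly GRCr8, Akr1b1, Akr1b8, Akr1b10 and Akr1b7 lie in a row on chromosome 4, Akr7a2 and Akr7a3 are neighbours on chromosome 5, and Akr1c2 lies beside Akr1e2 and Akr1c1 on chromosome 17. RefSeq's promoter windows, from 250 bases before to 50 bases after a gene's start, matched 6 of the 8 members; Akr1b1 and Akr1d1 are named only. The windows of 4 members are shown because of how the genes moved: of the 8, Akr1b8 was the most raised after DEN at week 12, Akr1c2 the most lowered, and Akr7a3 and Akr7a2 are adjacent genes whose probes moved differently. They lie at chr4:63964171-63964470 (plus strand), chr5:156876471-156876770 (plus strand), chr5:156835339-156835638 (plus strand) and chr17:70717831-70718130 (minus strand) in GRCr8. Each is printed 5′ to 3′ on the gene's strand, and the capitals mark the 50 bases from the annotated start onwards.
Akr1b8: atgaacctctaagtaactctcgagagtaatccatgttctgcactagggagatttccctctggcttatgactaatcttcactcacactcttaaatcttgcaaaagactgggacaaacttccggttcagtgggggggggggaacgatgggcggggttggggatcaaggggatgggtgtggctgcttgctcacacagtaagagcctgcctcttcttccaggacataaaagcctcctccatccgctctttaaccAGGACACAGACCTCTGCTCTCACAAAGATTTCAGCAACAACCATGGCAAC
Akr7a3: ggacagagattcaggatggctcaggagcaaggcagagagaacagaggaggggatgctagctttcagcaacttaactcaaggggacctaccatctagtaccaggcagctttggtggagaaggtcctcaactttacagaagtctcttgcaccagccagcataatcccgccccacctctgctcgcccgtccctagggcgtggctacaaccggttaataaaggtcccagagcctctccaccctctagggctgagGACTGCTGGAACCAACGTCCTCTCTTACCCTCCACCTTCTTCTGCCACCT
Akr7a2: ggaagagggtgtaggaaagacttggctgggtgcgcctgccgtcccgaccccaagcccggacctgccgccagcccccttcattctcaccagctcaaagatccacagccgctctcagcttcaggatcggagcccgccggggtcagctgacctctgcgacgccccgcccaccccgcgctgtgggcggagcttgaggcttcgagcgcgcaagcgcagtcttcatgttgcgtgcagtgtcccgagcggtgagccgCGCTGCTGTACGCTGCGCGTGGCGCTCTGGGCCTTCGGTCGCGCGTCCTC
Akr1c2: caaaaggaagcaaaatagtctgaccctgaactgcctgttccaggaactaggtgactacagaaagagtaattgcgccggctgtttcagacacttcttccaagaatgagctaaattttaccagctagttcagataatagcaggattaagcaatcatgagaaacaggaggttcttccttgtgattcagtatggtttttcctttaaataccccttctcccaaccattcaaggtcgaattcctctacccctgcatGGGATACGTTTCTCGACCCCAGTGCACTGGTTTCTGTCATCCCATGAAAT
The Akr7a2 window was 68.7% G and C with 32 CpG pairs, and that of Akr7a3 55.7% with 6, against medians of 51.7% and 7 over the 33469 rat windows of that length. The Akr1b8 window was 50.3% G and C with 5 CpG pairs, and that of Akr1c2 43.7% with 5. The letters TGACNNNGC, the core of the antioxidant response element, were searched on both strands and were in none of the 6 windows, against 12.1% of all windows. TGANTCA, a looser form of the AP-1 site, whose middle base is C or G, was in 1 of the 6, at base -73 of Akr1c2, against 7.33% of all windows. The letters there are TGATTCA, so the middle base is not that of the AP-1 site. Both patterns begin with TGA and can overlap, and they did not here; letters missing from a window of 300 bases say nothing about the factors.

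Levels are log2 intensities after background correction and quantile normalisation, and a level is set only against other arrays of the same probe. A group mean at or below 6.38, the median of all values, is called near background here, and the size of a change against such a group moves with how the background is treated. Paralogs of one branch are close in sequence, and cross-binding of the probes was not tested. Raw array medians ran from 105 to 186.9, and arrays correlated at 0.907 to 0.99. The vehicle array numbered 24 in its title had the lowest raw median. It stood apart on the third principal component, at 34.5, against -1.1 and -0.3 for the other vehicle arrays. Results that rest on it are given with and without it. Of the hepatocyte markers 8 were measured, and their mean log2 level ran from 11.71 to 12.81 over all arrays, with Apob near background in every group. That mean was lower in every array of DEN-treated rats, with or without erlotinib, than in every PBS array. A call means an adjusted p under 0.05 from limma with Benjamini-Hochberg adjustment over all features. Comparisons within a week share control arrays. The plot of levels by group shows the 8 members in the 21 livers.

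**Figure D1:**
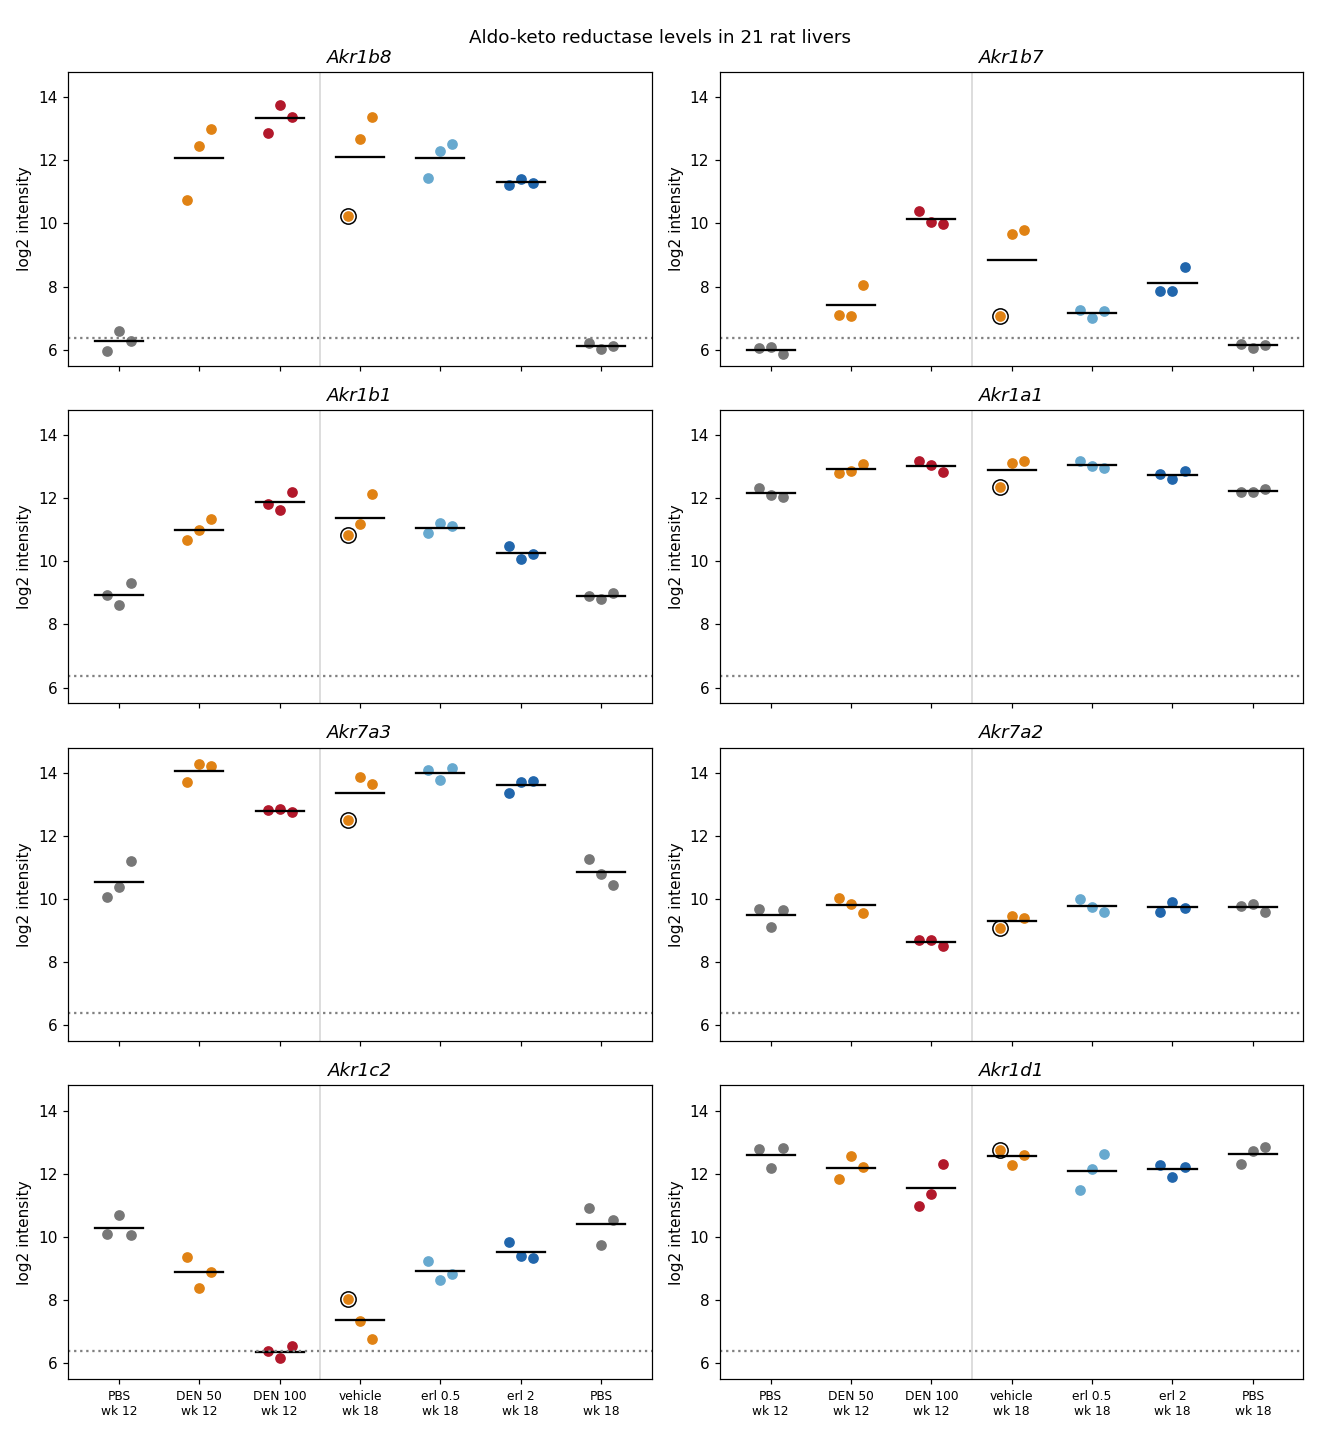
Log2 intensity of each member (vertical axis) in the 7 groups (horizontal axis, week 12 left of the line and week 18 right of it). Points are arrays, bars are group means of 3, the dotted line is the near-background level of 6.38, and the ring marks vehicle array 24. Akr1b8 and Akr1b7 lay near the dotted line in both PBS groups, and Akr1c2 did so in the DEN 100 group.

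At week 12, DEN 50 raised 5 of the 8 members and lowered 1. Akr1b8 and Akr7a3 changed most, followed by Akr1b1, Akr1b7 and Akr1a1, while Akr1c2 fell and neither Akr1d1 nor Akr7a2 was called. Over all features the same comparison called 10.9%, with 5.77% higher and 5.13% lower. Of these 6 member calls 5 were made when any 1 of the 6 arrays was left out, Akr1b7 being lost each time, and 4 to 6 over the other settings tried. DEN 100 raised those 5 members as well and lowered Akr1c2, Akr7a2 and Akr1d1, where 21.3% of all features were called (11.5% higher, 9.81% lower). DEN 100 against DEN 50 had 2 members higher and 3 lower, beside 9.38% of features (5.07% higher, 4.31% lower). At week 18, DEN 50 with vehicle again had 5 members higher and 1 lower against PBS, where 18.2% of features were called (9.51% higher, 8.73% lower). The median change of the 8 members was 1.08 for DEN 50 and 1.56 for DEN 100 at week 12 and 1.57 at week 18, against medians over all features of -0.02, -0.01 and -0.03 on the log2 scale. The 12 other superfamily genes had medians of -0.16, -0.01 and -0.17 in the same order. Because the 8 members were chosen with earlier results of these data known, their counts and medians are no test of the family. The plot of changes gives each member's value with its standard error.

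**Figure D2:**
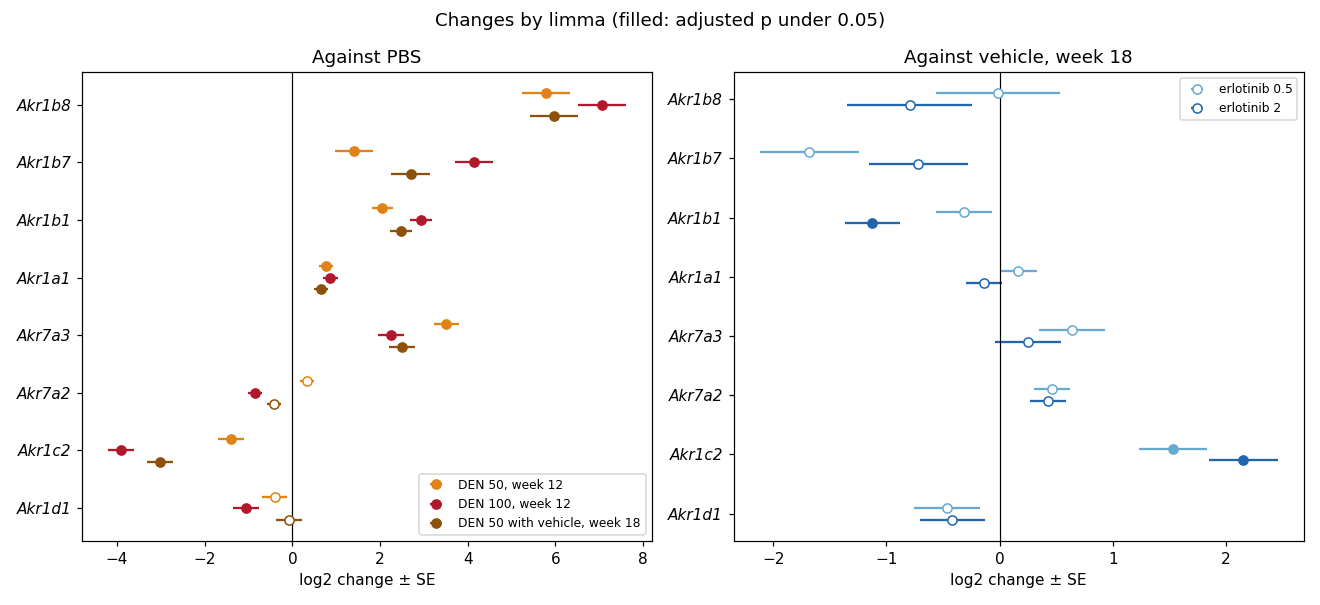
Log2 change with standard error (horizontal axis) of each member (rows), against PBS on the left and against vehicle at week 18 on the right; filled points passed an adjusted p of 0.05. Against PBS the 3 aldose reductase branch genes, Akr1a1 and Akr7a3 lie right of 0 and Akr1c2 lies left of it. Against vehicle the filled points are Akr1c2, right of 0 at both erlotinib doses, and Akr1b1, left of it at 2 mg/kg. Open points also lie left of 0 there, furthest Akr1b7 at 0.5 mg/kg (-1.68).

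Among the aldose reductase branch, Akr1b8 had log2 levels of 10.74, 12.44 and 12.99 in DEN 50 livers and 12.87, 13.75 and 13.38 in DEN 100 livers, against 5.96, 6.58 and 6.28 in PBS livers. Every DEN array was far above every PBS array, in which the probe was near background. The change was 5.78 ± 0.55 for DEN 50 (SE, n = 3 each, adjusted p = 3.6e-07) and 7.06 ± 0.55 for DEN 100 (adjusted p = 2.9e-09). The DEN 50 value was 4.96 in the authors' normalized table and 6.44 without DEN 50 array 11, the lowest of its group, and the DEN 100 value was 6.20 in that table. Between the doses Akr1b8 was not called: DEN 100 exceeded DEN 50 by 1.28, with a 95% interval from 0.14 to 2.42 (adjusted p = 0.19), and 1 array of DEN 50 was well below the rest. At week 18 the levels were 10.25, 12.66 and 13.37 in DEN 50 livers with vehicle and 6.2, 6.03 and 6.13 in PBS livers. The change of 5.97 ± 0.55 (adjusted p = 8.3e-08) was 6.89 without vehicle array 24, the lowest of the 3.

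Akr1b7, separated from Akr1b8 by Akr1b10 on chromosome 4, differed between the doses. It had log2 levels of 7.1, 7.08 and 8.04 in DEN 50 livers and 10.4, 10.05 and 9.99 in DEN 100 livers, against 6.04, 6.1 and 5.88 in PBS livers. The 3 groups did not overlap, and the DEN 100 arrays were the highest. The change was 1.40 ± 0.44 for DEN 50 (adjusted p = 0.042), a call that was lost when any 1 of the 6 arrays was left out (adjusted p between 0.055 and 0.21) and under 5 other settings (0.1 to 0.2). For DEN 100 it was 4.14 ± 0.44 (adjusted p = 2.2e-07), and DEN 100 exceeded DEN 50 by 2.74 ± 0.44 (adjusted p = 0.00021). At week 18 the levels were 7.07, 9.65 and 9.79 in DEN 50 livers with vehicle and 6.19, 6.06 and 6.16 in PBS livers, a change of 2.70 ± 0.44 (adjusted p = 9.8e-05). Array 24 was the low one, and without it the change was 3.58.

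Akr1b1 was measured well above background in every group, so its change was not bounded by the floor. Its log2 levels were 10.67, 11 and 11.33 in DEN 50 livers and 11.81, 11.63 and 12.2 in DEN 100 livers, against 8.92, 8.62 and 9.3 in PBS livers. The groups formed 3 separate steps. The change was 2.05 ± 0.25 for DEN 50 (adjusted p = 6.5e-06) and 2.93 ± 0.25 for DEN 100 (adjusted p = 8.2e-09), and the step between the doses was 0.88 ± 0.25 (adjusted p = 0.024). That last call was lost without DEN 50 array 11 (adjusted p = 0.14), DEN 50 array 14 (0.065) or the highest DEN 100 array (0.14), with median scaling (0.49, adjusted p = 0.68) and with scaling on bright probes (0.81, adjusted p = 0.092). At week 18 the levels were 10.82, 11.19 and 12.13 in DEN 50 livers with vehicle and 8.9, 8.79 and 9.01 in PBS livers, a change of 2.48 ± 0.25 (adjusted p = 2.5e-07). Akr1b10, which lies between Akr1b8 and Akr1b7, was near background or just above it in all groups, at 6.06 to 6.92, and passed the test in neither DEN dose nor week (changes of 0.13, 0.29 and -0.11).

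Of the general and aflatoxin aldehyde reductases, Akr1a1 rose by less than 1 log2 unit. Its levels were 12.8, 12.87 and 13.07 in DEN 50 livers and 13.16, 13.04 and 12.84 in DEN 100 livers, against 12.31, 12.09 and 12.04 in PBS livers. The doses overlapped each other but not PBS, with changes of 0.77 ± 0.16 (adjusted p = 0.0029) and 0.87 ± 0.16 (adjusted p = 0.00034). At week 18 it was 12.35, 13.11 and 13.18 with vehicle and 12.18, 12.18 and 12.3 in PBS livers, a change of 0.66 ± 0.16 (adjusted p = 0.0057), again with array 24 lowest. Without that array the change was 0.93 (adjusted p = 2.5e-05). Each of the calls made with all arrays was lost in at least 1 setting. With scaling on bright probes, which shifts the median of all features by -0.49 for DEN 50 and by -0.34 at week 18, the changes were 0.56 for DEN 50 (adjusted p = 0.058) and 0.33 at week 18 (adjusted p = 0.23). With median scaling they were 0.81 for DEN 100 (adjusted p = 0.079) and 0.73 at week 18 (adjusted p = 0.13). The week 18 call was also lost with only the arrays compared (adjusted p = 0.051) and without vehicle array 69 (0.51, adjusted p = 0.052).

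Akr7a3 was higher after the lower dose than after the higher one. Its levels were 13.7, 14.29 and 14.23 in DEN 50 livers and 12.82, 12.84 and 12.75 in DEN 100 livers, against 10.06, 10.39 and 11.22 in PBS livers. DEN 50 was above DEN 100, and both were above PBS, with no overlap. The change was 3.52 ± 0.29 for DEN 50 (adjusted p = 4.6e-08) and 2.25 ± 0.29 for DEN 100 (adjusted p = 3.7e-06), and DEN 100 was below DEN 50 by -1.27 ± 0.29 (adjusted p = 0.0061; 0.053 with median scaling). At week 18 the levels were 12.52, 13.88 and 13.65 in DEN 50 livers with vehicle and 11.26, 10.81 and 10.46 in PBS livers, a change of 2.51 ± 0.29 (adjusted p = 1.7e-06). Without vehicle array 24, the lowest of its group, the change was 2.92 (adjusted p = 5.2e-08).

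The adjacent Akr7a2 had levels of 10.02, 9.86 and 9.57 in DEN 50 livers and 8.7, 8.69 and 8.5 in DEN 100 livers, against 9.69, 9.12 and 9.65 in PBS livers. DEN 50 overlapped PBS, with a change of 0.33 and a 95% interval from 0 to 0.66 (adjusted p = 0.23), while DEN 100 was below both. DEN 100 lowered it by -0.86 ± 0.16 against PBS (adjusted p = 3e-04) and by -1.19 ± 0.16 against DEN 50 (adjusted p = 3.1e-05), and the first of these was lost with median scaling (-0.63, adjusted p = 0.22). At week 18 it had 9.08, 9.46 and 9.41 with vehicle and 9.79, 9.83 and 9.59 in PBS livers. Those groups did not overlap, which held for 30.9% of all features, and the change of -0.43 ± 0.16 missed the threshold (adjusted p = 0.072). It passed with a stricter filter on dim probes (adjusted p = 0.049).

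Between the steroid enzymes the contrast was wide. Akr1c2 had levels of 9.37, 8.37 and 8.89 in DEN 50 livers and 6.39, 6.16 and 6.56 in DEN 100 livers, against 10.08, 10.68 and 10.07 in PBS livers. The groups did not overlap, and the DEN 100 arrays were at the near-background level. DEN 50 lowered it by -1.40 ± 0.30 (adjusted p = 0.0033; 0.06 with median scaling) and DEN 100 by -3.91 ± 0.30 (adjusted p = 2.6e-09; -3.22 in the authors' normalized table), and the doses differed by -2.51 ± 0.30 (adjusted p = 8.1e-06). At week 18 the levels were 8.03, 7.34 and 6.76 in DEN 50 livers with vehicle and 10.91, 9.75 and 10.53 in PBS livers, a change of -3.02 ± 0.30 (adjusted p = 2.7e-07). In a bulk sample, fewer cells of a type and less RNA per cell cannot be told apart.

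Akr1d1 had levels of 11.83, 12.55 and 12.21 in DEN 50 livers and 10.97, 11.35 and 12.3 in DEN 100 livers, against 12.78, 12.19 and 12.83 in PBS livers. DEN 50 gave a change of -0.40 with a 95% interval from -1.01 to 0.2 (adjusted p = 0.48). The fall of -1.06 ± 0.29 in DEN 100 was called (adjusted p = 0.0099) although its highest array overlapped PBS, and it was lost without the lowest DEN 100 array (-0.78, adjusted p = 0.083) and with median scaling (adjusted p = 0.072). At week 18 the change was -0.08, with an interval from -0.68 to 0.52 (adjusted p = 0.91).

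Between the weeks 1 member was called, and it was in DEN livers. Of the groups compared, only the week 18 DEN livers had the erlotinib vehicle. Week, time on DEN and vehicle can therefore not be told apart in DEN livers or in the interaction. In PBS livers of week 18 against week 12 no member was called and no feature passed in limma (0% of all features; 1568 had an unadjusted p under 0.05, and 6 were called with a trended and robust spread). DEN 50 livers with vehicle at week 18 against DEN 50 livers at week 12 had 0.543% of features called (0.15% higher, 0.393% lower) and 1 member among them, Akr1c2, lower by -1.50 ± 0.30 (adjusted p = 0.03), a call lost without DEN 50 array 11 (adjusted p = 0.22), DEN 50 array 51 (0.082) or vehicle array 69 (0.12) and in 5 of the 9 other settings (0.058 to 0.17). Akr1b7 was at 1.43 ± 0.44 in that comparison (adjusted p = 0.16), and without vehicle array 24 at 2.31 (adjusted p = 3.3e-05). The interaction of DEN 50 and week called 0.233% of features (0.0517% higher, 0.181% lower) and no member, with Akr1c2 at -1.62 ± 0.43 (adjusted p = 0.10) and Akr1b7 at 1.30 ± 0.62 (adjusted p = 0.39). Without array 24 both passed, at -1.94 (adjusted p = 0.045) and 2.18 (adjusted p = 0.0061).

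Erlotinib changed few members against vehicle, and Akr1c2 was the one raised at both doses. It had 9.25, 8.63 and 8.84 with erlotinib at 0.5 mg/kg and 9.84, 9.41 and 9.34 at 2 mg/kg, against 8.03, 7.34 and 6.76 with vehicle and 10.91, 9.75 and 10.53 in PBS livers. Neither dose overlapped vehicle. At 2 mg/kg it rose by 2.16 ± 0.30 (adjusted p = 0.00023), where 4.03% of features were called (1.92% higher, 2.11% lower) and 1 member was higher and 1 lower. At 0.5 mg/kg it rose by 1.53 ± 0.30 (adjusted p = 0.044), the 1 member called beside 0.14% of features (0.103% higher, 0.0362% lower), and that call was lost when any 1 of the arrays 59, 69, 73, 74 or 79 was left out (adjusted p from 0.069 to 0.31) and in 6 of the 9 other settings (0.095 to 0.26), while without vehicle array 24 it was 1.86 (adjusted p = 0.0047). Against PBS it was at -1.49 ± 0.30 with 0.5 mg/kg (adjusted p = 0.0013), and with 2 mg/kg at -0.86 with an interval from -1.49 to -0.23 (adjusted p = 0.11), which was called with only the arrays compared (adjusted p = 0.032) and without PBS array 9 (-1.18, adjusted p = 0.034).

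Akr1b1 was the member lowered by erlotinib at 2 mg/kg. Its levels were 10.88, 11.2 and 11.12 at 0.5 mg/kg and 10.47, 10.07 and 10.23 at 2 mg/kg, against 10.82, 11.19 and 12.13 with vehicle. All 3 arrays of the higher dose were below all 3 of vehicle. The change at 2 mg/kg was -1.12 ± 0.25 (adjusted p = 0.0096), lost without vehicle array 69 (-0.75, adjusted p = 0.064) or erlotinib array 29 (-1.03, adjusted p = 0.067), with median scaling (adjusted p = 0.35) and with only the arrays compared (0.061), and at 0.5 mg/kg it was -0.31 with an interval from -0.82 to 0.2 (adjusted p = 0.72). Without vehicle array 24 the change at 2 mg/kg was -1.40 (adjusted p = 0.0015). At 2 mg/kg Akr1b1 was still above PBS, by 1.36 ± 0.25 (adjusted p = 0.0014).

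For Akr1b8 and Akr1b7 the erlotinib comparisons depended on single arrays, vehicle array 24 among them. Akr1b8 had 11.44, 12.3 and 12.51 at 0.5 mg/kg and 11.23, 11.4 and 11.27 at 2 mg/kg, against 10.25, 12.66 and 13.37 with vehicle. The treated arrays lay inside the vehicle range. Its change was -0.01 at 0.5 mg/kg (interval from -1.16 to 1.13) and -0.79 at 2 mg/kg (interval from -1.94 to 0.35), and neither was called (adjusted p = 1 and 0.58). Without array 24 the change at 2 mg/kg was -1.71 (adjusted p = 0.026). Akr1b7 had 7.27, 6.99 and 7.22 at 0.5 mg/kg and 7.86, 7.87 and 8.63 at 2 mg/kg, against 7.07, 9.65 and 9.79 with vehicle. Only array 24 of the vehicle group reached down to the treated arrays. The changes were -1.68 (adjusted p = 0.13) and -0.72 (adjusted p = 0.50), and without array 24 they were -2.56 (adjusted p = 1.1e-05) and -1.60 (adjusted p = 0.00031). Of the 8 members, 2 were then called at 0.5 mg/kg and 4 at 2 mg/kg, as the plot of the erlotinib comparisons with and without that array shows. Of all 19339 features, the same fit called 36 at 0.5 mg/kg (29 higher, 7 lower) and 662 at 2 mg/kg (298 higher, 364 lower). With all arrays those counts were 27 and 780. That fit leaves 2 vehicle arrays. Over the omissions of each array in turn, Akr1b8 ran from -0.93 to 0.63 at 0.5 mg/kg and from -1.71 to -0.16 at 2 mg/kg. Akr1b7 ran from -2.56 to -1.21 and from -1.60 to -0.24.

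**Figure D3:**
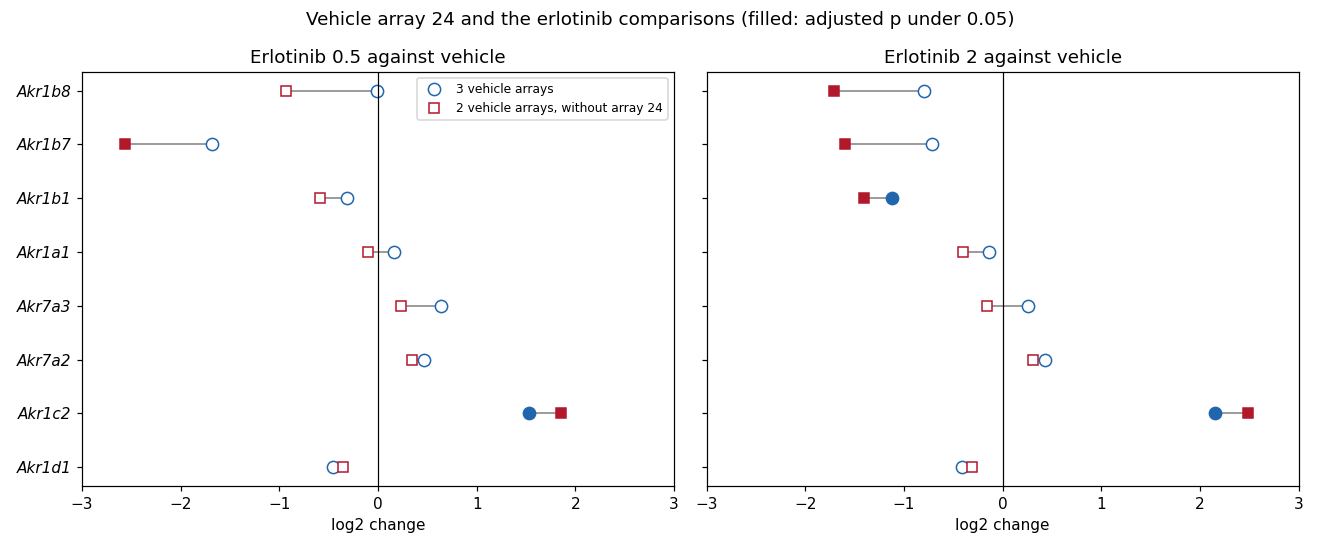
Log2 change against vehicle (horizontal axis) of the 8 members (rows) at erlotinib 0.5 mg/kg and 2 mg/kg, with all 3 vehicle arrays (circles) and without array 24 (squares); filled marks passed an adjusted p of 0.05. Leaving the array out moved Akr1b7 and Akr1b8 furthest to the left, and Akr1c2 stayed right of 0 either way.

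Akr7a3, Akr1a1, Akr7a2 and Akr1d1 were called at neither erlotinib dose. Akr7a3 was at 0.64 (interval from 0.04 to 1.25) at 0.5 mg/kg and 0.25 (interval from -0.35 to 0.86) at 2 mg/kg. It was still above PBS at both, by 3.15 ± 0.29 (adjusted p = 1.4e-07) and 2.76 ± 0.29 (adjusted p = 3.2e-06). Akr7a2 was at 0.46 and 0.43 against vehicle, with adjusted p of 0.23 and 0.17. Against PBS, 4 members were higher and 1 lower at 0.5 mg/kg, where 15.5% of features were called (8.01% higher, 7.47% lower), and 4 were higher and 0 lower at 2 mg/kg, where 5.67% were called (3.36% higher, 2.32% lower). Akr1b8 was above PBS by 5.96 ± 0.55 and 5.18 ± 0.55 at the 2 doses (adjusted p = 1.4e-07 and 3.4e-06), while Akr1b7 was at 1.02 (adjusted p = 0.14) and 1.98 (adjusted p = 0.0077). The Akr1b7 call at 2 mg/kg was lost with median scaling (adjusted p = 0.12) and without erlotinib array 31 (1.73, adjusted p = 0.058), and its value at 0.5 mg/kg passed with only the arrays compared (adjusted p = 5.5e-05). Erlotinib at 2 mg/kg against 0.5 mg/kg called 0.0776% of features (0.0362% higher, 0.0414% lower) and no member, with Akr1b1 at -0.81 ± 0.25 (adjusted p = 0.25) and Akr1b7 at 0.97 ± 0.44 (adjusted p = 0.58), and both passed when only the arrays compared were fitted (adjusted p = 0.013 and 0.023).

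Markers of other cells moved in the same comparisons. Of 5 cholangiocyte markers measured, 4 were higher in DEN 50 livers, 5 in DEN 100 livers and 4 in DEN 50 livers with vehicle, and 3 were lower with erlotinib at 2 mg/kg than with vehicle. Their mean log2 level was 8.47 to 9.37 in DEN 50 and 9.52 to 10.76 in DEN 100, against 6.85 to 7.5 in PBS, all of week 12, and at week 18 it was 8.08 to 8.65 with erlotinib at 2 mg/kg, against 8.94 to 10 with vehicle and 7.03 to 7.27 in PBS, with Krt7 near background in DEN 50, PBS and both erlotinib groups and Spp1 in PBS of week 18. Of 6 stellate cell and myofibroblast markers, 4, 4 and 5 were higher after DEN in the same order and 5 were lower with erlotinib at 2 mg/kg, at 8.47 to 8.71, against 9.66 to 9.81 with vehicle and 7.55 to 7.74 in PBS, where Col1a1 was near background. Of 4 measured markers of preneoplastic rat hepatocytes 3 were higher in each of the 3 DEN comparisons with PBS and 2 were lower with erlotinib at 2 mg/kg; Gstp1 and Abcc3 of that list also stand in the antioxidant list. Of 6 macrophage markers, 2 were higher and 2 lower in DEN 50 livers, 4 and 2 in DEN 100 livers and 4 and 1 in DEN 50 livers with vehicle, and 1 was higher with erlotinib at 2 mg/kg. Their mean level was 9.39 to 9.62 in DEN 50 and 9 to 9.89 in DEN 100, against 9.09 to 9.64 in PBS, all of week 12, and at week 18 it was 9.73 to 9.94 with erlotinib at 2 mg/kg, 9.37 to 9.85 with vehicle and 8.88 to 9.18 in PBS. Both endothelial markers, Vwf and Lyve1, were higher in DEN 100 livers and in DEN 50 livers with vehicle. Their mean level was 9.53 to 10.3 in DEN 100, against 8.35 to 8.53 in PBS of week 12, and 9.51 to 9.8 with vehicle, against 8.37 to 8.58 in PBS of week 18. Of the 8 hepatocyte markers, 2, 3 and 3 were lower after DEN, and 1 was higher in DEN 100. With erlotinib at 2 mg/kg 1 was higher than with vehicle. Their mean level was 12.29 to 12.45 in DEN 50 and 11.71 to 12.35 in DEN 100, against 12.63 to 12.81 in PBS of week 12. At week 18 it was 12.21 to 12.44 with vehicle and 12.44 to 12.53 with erlotinib at 2 mg/kg, against 12.67 to 12.75 in PBS. The part of these cells in the members' changes was not tested.

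Of the other 12 genes of the superfamily, those of the Akr1c branch moved in both directions. Counted over all 12, Akr1e2 included, 1 was higher and 3 were lower in DEN 50 livers at week 12. The counts were 4 and 4 in DEN 100 livers, and 3 and 4 in DEN 50 livers with vehicle at week 18. Akr1c3 (synonym Akr1c18), a progesterone-metabolising enzyme in rats, fell at both doses and weeks (-1.66, -3.43 and -2.54), and rose with erlotinib at 2 mg/kg by 1.34 ± 0.36 (adjusted p = 0.034). Akr1c12 fell in the same comparisons (-1.22, -1.84 and -1.54) and rose by 0.82 ± 0.22 with erlotinib at 2 mg/kg (adjusted p = 0.04), and Akr1e2, the neighbour of Akr1c2, fell too (-0.79, -1.18 and -0.98) and rose by 0.59 ± 0.15 (adjusted p = 0.03). Opposite to them, Akr1c19 rose by 1.10 ± 0.30, 2.38 ± 0.30 and 2.25 ± 0.30 (adjusted p = 0.019, 2.3e-06 and 9.8e-06). Akr1c13 and Akr1c12l1 were higher in DEN 100 livers (1.05 and 0.89) and at week 18 (1.16 and 0.92). Akr1c15 had a mean level of 7.47 in DEN 100 livers, against 6.79 in PBS livers of week 12, and the arrays overlapped. Akr1c14, the rat 3-alpha-hydroxysteroid dehydrogenase, fell in DEN 100 (-0.75) and at week 18 (-0.91), and the potassium channel beta subunits Kcnab1, Kcnab2 and Kcnab3 were not called in any of these comparisons. The plot of the other superfamily genes sets these values side by side.

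**Figure D4:**
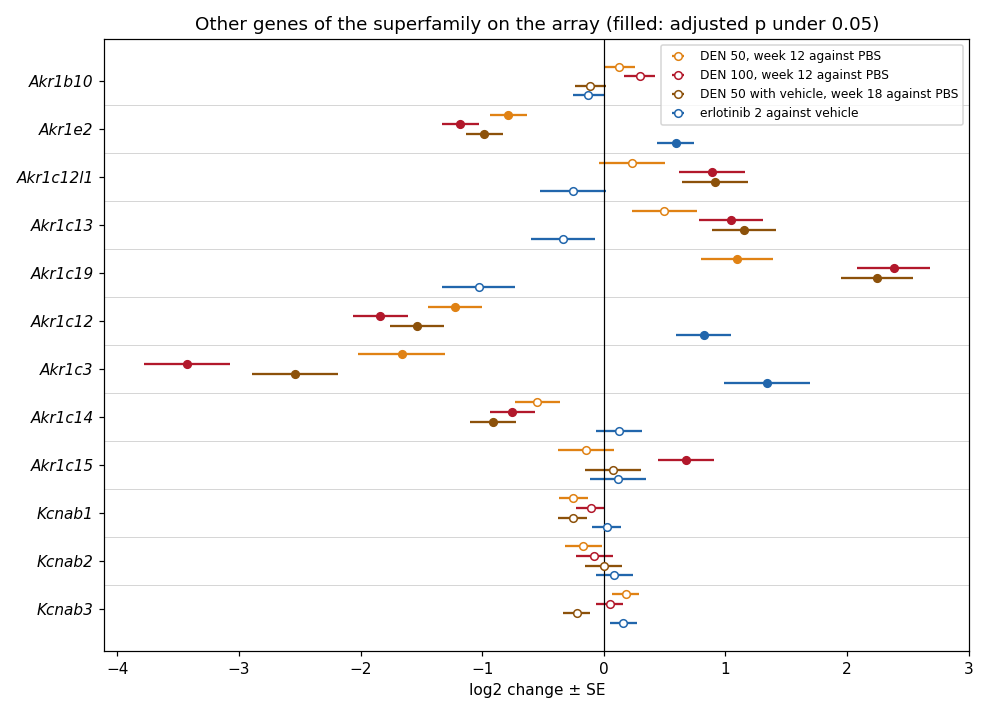
Log2 change with standard error (horizontal axis) of the 12 other superfamily genes measured (rows) in 3 comparisons of DEN with PBS and in erlotinib at 2 mg/kg against vehicle; filled points passed an adjusted p of 0.05. Akr1c19, Akr1c13 and Akr1c12l1 lie right of 0 where Akr1c3, Akr1c12, Akr1c14 and Akr1e2 lie left of it in the DEN comparisons.

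Genes that work beside the members were counted by list. Of 20 measured genes of the antioxidant and glutathione response, in which the factor NRF2 acts, 16 were higher and 0 lower in DEN 50 livers, 15 and 0 in DEN 100 livers, and 15 and 0 at week 18, and with erlotinib at 2 mg/kg 0 were higher and 1 lower. Gstp1, the placental glutathione transferase of rat liver foci, rose by 7.06 ± 0.31 in DEN 50 livers (adjusted p = 4.7e-12) and fell by 1.21 ± 0.31 with erlotinib at 2 mg/kg (adjusted p = 0.028). Nqo1, a quinone reductase, rose by 3.86, 4.29 and 3.94 in the 3 DEN comparisons, Gsta3 by 4.54, 5.01 and 3.71, and the glutathione peroxidase Gpx2 by 2.80, 4.13 and 3.05. Of 15 measured other enzymes of aldehydes and ketones 5 were higher and 4 lower in DEN 50 livers, 6 and 5 in DEN 100 livers, and 7 and 5 at week 18. The leukotriene and enal reductase Ptgr1 rose by 2.83, 3.07 and 2.80 in the 3 comparisons, while the aldehyde oxidase Aox3 fell in all 3 (-3.98, -4.17 and -3.78), to a mean near background in all 3 DEN groups. Aldh1a1, a retinaldehyde dehydrogenase, rose by 3.06, 2.89 and 1.59.

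In the pathway of aldose reductase, 4 genes of polyols and fructose were measured and 0, 3 and 3 of them were lower in DEN 50, DEN 100 and DEN 50 livers with vehicle, with none higher. Of the 4, Hk2 was near background in every group, where a fall could not be seen. Khk, the fructokinase, was at -2.24 ± 0.19 and Sord, the sorbitol dehydrogenase that follows Akr1b1, at -1.37 ± 0.18 in DEN 100 livers (adjusted p = 6.2e-09 and 4e-06), and Khk rose by 0.95 ± 0.19 with erlotinib at 2 mg/kg (adjusted p = 0.0041). Beside Akr1a1, 7 genes of glucuronate and ascorbate were measured, Akr1a1 among them, with 3 higher and 3 lower, 3 and 4, and 3 and 3 in the same order. Gulo, which makes ascorbate in rats, fell in all 3 (-1.20, -2.61 and -2.06), as did Rgn, the gluconolactonase before it (-1.09, -4.35 and -1.17), while Cryl1 rose by 1.91, 1.51 and 1.21.

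Beside Akr1d1, 12 genes of bile acid synthesis were measured, Akr1c14 among them: 1 higher and 5 lower in DEN 50 livers, 0 and 12 in DEN 100 livers, and 0 and 8 at week 18. Slc27a5 and Baat, which activate bile acids and join them to amino acids, were at -4.53 ± 0.47 and -3.67 ± 0.18 in DEN 100 livers (adjusted p = 1.6e-07 and 5.8e-12) and rose by 2.07 ± 0.47 and 1.05 ± 0.18 with erlotinib at 2 mg/kg (adjusted p = 0.012 and 0.0019). Cyp7a1, the rate-limiting enzyme, was at 1.88 in DEN 50 (adjusted p = 0.035), -2.33 in DEN 100 (adjusted p = 0.004) and -1.22 at week 18 (adjusted p = 0.17). Of 7 measured steroid enzymes 0 were higher and 3 lower, 0 and 4, and 1 and 4 in those comparisons, and with erlotinib at 2 mg/kg 2 were higher. Hsd3b5, a liver steroid dehydrogenase, fell in those 3 (-1.66, -4.33 and -2.49) and rose by 1.25 ± 0.22 with erlotinib at 0.5 mg/kg (adjusted p = 0.016) and by 2.09 ± 0.22 at 2 mg/kg (adjusted p = 1.6e-05). Hsd17b2, at -3.93 in DEN 100, did not rise with erlotinib (-0.56 and -0.41 against vehicle, adjusted p = 0.68 and 0.74). It stayed below PBS at both doses (-2.01 and -1.86, adjusted p = 0.0013 and 0.0076). Hsd3b2 was near background in every group, where a fall could not be seen. Akr1d1 itself was called in 1 of the 3 DEN comparisons.

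The named genes whose levels ran closest to each member over the 21 arrays were found by Pearson correlation, which mostly describes the shared group differences and the shared arrays. Akr1b8 ran closest to Nqo1 (r = 0.983), Ptgr1 (0.981) and Rrm2 (0.979), Akr1b1 to Fbln1 (0.98), Slc66a3 (0.98) and Defb1 (0.979), and Akr1b7 to Pglyrp1 (0.92), Epdr1 (0.913) and Clic5 (0.909). For Akr1c2 they were Mbl2 (0.977), Hsd3b5 (0.971) and Gltpd2 (0.962), and for Akr7a3 Enpp5 (0.964), Loxl2 (0.961) and Abcc3 (0.951). Akr1a1 ran closest to Cfl1 (0.967), Akr7a2 to Agxt2 (0.926) and Akr1d1 to Commd10 (0.823). Among the members, Akr1b8 and Akr1b1 correlated at 0.952 and Akr1b7 and Akr1c2 at -0.884. After the group means were taken out, Akr1b7 and Akr1a1 correlated at 0.911 and Akr1b8 and Akr1b7 at 0.751 over the same 21 arrays, and array 24 was low for all 3 genes.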

How the data were processed

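Total RNA of non-tumour liver was hybridised to Illumina bead arrays, per the labels. The authors deposited a table of raw probe intensity and a table of normalized intensity for the 21 arrays; the array medians of the deposited normalized intensity lay between 135.5 and 136.8, and its ranks correlated with the raw ones at 0.9998 or more. The scanner software, detection p-values and control probes are not used here. The raw intensity was background-corrected with normexp (offset 50), quantile-normalised and taken to log2 in limma 3.58.1 (R 4.3.3). A feature was kept if it exceeded the 40th percentile on at least 3 arrays. Probes with a symbol numbered 13793, and 13752 were updated through their Entrez ID in RefSeq (GRCr8), which also gave gene order and promoter windows. All 7 groups of 3 were fitted together (14 residual degrees of freedom), and p-values were adjusted over 19339 features. Tested on simulated data of this design, the fit was checked for recovery of known changes. Members and gene lists were chosen with earlier results of these data known. Named genes were the 8 members, the other Akr and Kcnab symbols, the 3 genes most correlated with each member, and up to 4 genes per list with the widest DEN change. Alternatives were the deposited table, no background correction, 2 other scalings, 2 other filters, other fits and leaving out each array. No sample was left out.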

Additional observations from a re-analysis of the deposited data

How the results depend on the processing

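The 9 other settings were median scaling, scaling on bright probes, the authors' normalized table, raw values without background correction, 2 other filters, the mean of a gene's probes, a fit of only the arrays compared, and a trended and robust spread, beside leaving out each array in turn. Each member has 1 probe, so the mean of probes cannot move its value. Over the 8 other settings, 721 of 768 member values kept their direction and side of the threshold, 31 lost the call, 8 gained one and 8 changed sign, and over the 4 of them that change a value and not just its p, 351 of 384 were kept; with an array left out the numbers were 562, 22, 8 and 32. The number of members called moved by over 1.5 times as follows. Erlotinib at 0.5 mg/kg against vehicle had 0 in place of 1 with the deposited table, no background correction, both scalings, only the arrays compared and the trended spread, and week 18 against week 12 in DEN 50 livers had 0 in place of 1 in the same settings except median scaling. Median scaling gave 5 in place of 8 for DEN 100 against PBS, 3 in place of 5 for DEN 100 against DEN 50 and 1 in place of 2 for erlotinib at 2 mg/kg against vehicle. Only the arrays compared gave 1 for that last comparison and 2 in place of 0 between the erlotinib doses. With 1 array left out the numbers ran from 0 to 2 for erlotinib at 0.5 mg/kg against vehicle, from 1 to 4 for 2 mg/kg, from 0 to 2 between the weeks in DEN 50 livers and from 0 to 2 in the interaction. By smaller steps, the other settings gave 4 to 6 for DEN 50 against PBS (6 as reported), 5 to 7 for DEN 50 with vehicle (6), 4 to 6 for erlotinib at 0.5 mg/kg against PBS (5) and 3 to 6 at 2 mg/kg (4). The cause of these moves was not tested; leaving out an array also leaves fewer arrays.

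Changes of sign were confined to member values that were not called. With median scaling Akr1a1 was at -0.29 for DEN 100 against DEN 50, Akr1d1 at 0.005 for DEN 50 with vehicle against PBS, and Akr1b8 at 0.057 for erlotinib at 0.5 mg/kg against vehicle, -0.17 for week 18 against week 12 in DEN 50 livers and -0.04 in the interaction. On bright probes Akr1a1 was at 0.048 for erlotinib at 2 mg/kg against vehicle, and Akr7a2 at -0.041 and -0.042 for erlotinib at 0.5 and 2 mg/kg against PBS. With 1 array left out, Akr1a1 ran from -0.18 to 0.23 between the weeks in DEN 50 livers, from -0.10 to 0.32 and from -0.40 to 0.014 for erlotinib at 0.5 and 2 mg/kg against vehicle, and from -0.26 to 0.16 in the interaction. Akr1b1 ran from -0.21 to 0.13 between the PBS groups and from -0.59 to 0.063 for erlotinib at 0.5 mg/kg against vehicle. Akr1b8 ran from -0.62 to 0.96 between the weeks in DEN 50 livers, from -0.93 to 0.63 for erlotinib at 0.5 mg/kg against vehicle and from -0.47 to 1.11 in the interaction. Akr1c2 ran from -0.14 to 0.44 and Akr1d1 from -0.17 to 0.19 between the PBS groups, and Akr1d1 from -0.24 to 0.05 for DEN 50 with vehicle against PBS and from -0.26 to 0.31 between the erlotinib doses. Akr7a2 ran from -0.07 to 0.13 and from -0.082 to 0.08 for erlotinib at 0.5 and 2 mg/kg against PBS and from -0.13 to 0.072 between the doses, and Akr7a3 from -0.16 to 0.52 for erlotinib at 2 mg/kg against vehicle.

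Counts of features called ran, over the other settings, from 1312 to 2347 for DEN 50 against PBS (2108 as reported), from 2317 to 4191 for DEN 100 (4114), from 676 to 1974 between the DEN doses (1814), from 1944 to 3655 for DEN 50 with vehicle (3528), from 0 to 28 for erlotinib at 0.5 mg/kg against vehicle (27), from 125 to 917 at 2 mg/kg (780), from 1 to 273 between the erlotinib doses (15), from 1685 to 3465 for 0.5 mg/kg against PBS (2994), from 327 to 1659 for 2 mg/kg against PBS (1097), from 0 to 6 between the PBS groups (0), from 6 to 117 between the weeks in DEN 50 livers (105) and from 3 to 85 in the interaction (45). Median scaling moved the share of calls that were higher to 89.7% for DEN 50 (52.9% as reported), 67.9% for DEN 100 (53.9%) and 79.5% for DEN 50 with vehicle (52.1%), and scaling on bright probes moved them to 35%, 49.9% and 41.2%. The chip as a block was not run, because the column headers name no chip. No paired analysis was possible because the groups compared share no numbers in their titles. Probes near background limit Akr1b8 and Akr1b7 in PBS livers and Akr1c2 in DEN 100 livers, and 3 arrays a group limit the precision.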
